A study of Mus musculus with 15 samples.

Results

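The 10 genes described here handle vitamin A and its products in the gut: Isx, Bco1, Rbp2, Lrat, Rdh7, Dhrs3, Aldh1a1, Aldh1a2, Aldh1a3 and Rarb. They were chosen by name and looked up by gene symbol, and all 10 were found among the 17752 genes listed in at least 1 mouse. The RNA came from intestinal tissue, named as ileum in the study's methods, of 15 female mice that the labels give as C57BL/6 and 8 weeks old (substrain C57BL/6JOlaHsd in the methods). No allele or other agent is given for any group. The mice were gavaged every 2 days over 10 days with water (5 mice) or with 200 mg/kg of proanthocyanidins (PAC, polymers of flavan-3-ols) from grape (5 mice for each of 2 fractions), and each mouse gave 1 library. The fractions differ in the mean degree of polymerization (mDP), that is, in how many units an average chain holds. The labels call them low PAC and high PAC, while the methods name the same pair low and medium mDP, and the names low mDP PAC and medium mDP PAC are used here. The comparisons ask whether PAC given by mouth altered transcripts of the ileum and whether this depended on polymer size.

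Vitamin A enters the enterocyte as retinol or as carotene, which is cleaved to retinal inside the cell. Retinol is carried by a cellular binding protein, esterified and packed into chylomicrons, or oxidised by way of retinal to retinoic acid, the ligand of the nuclear receptors RAR. In the intestine retinoic acid is known for its part in the homing of lymphocytes to the gut and in a feedback on vitamin A uptake, in which the homeobox factor ISX represses the carotene-cleaving enzyme.

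Expected counts, the authors' estimates of the reads of each gene, summed to between 15963086 and 17903886 per mouse, so depth differed little between libraries. All 10 enterocyte markers and all 6 distal ileum markers (such as the bile acid carriers Slc10a2 and Fabp6) were among the listed genes. The other marker lists were found in full too, except that of the pancreas, so this does not tell the tissue apart. Marker scores, which are built from RNA levels, differed between the mice. A position score, the mean centred log2 level of 8 proximal small intestine genes less that of 6 distal ileum genes, averaged 0.56 in water mice (range -0.15 to 1.54), -0.28 after low mDP PAC (-1.44 to 0.53) and -0.28 after medium mDP PAC (-0.75 to 0.44). The summed FPKM (mapped fragments of a gene, scaled for its length and for sequencing depth) of 8 follicular B cell genes ran from 1.87 to 134 across the 15 mice, and that of 4 fat cell genes from 22 to 151. Mean marker scores of other cell types also differed between the groups, given here for water, low and medium mDP PAC in turn. The enteric neuron and glia score averaged -0.44, 0.12 and 0.32 (highest water mouse 0.097, lowest medium mDP PAC mouse 0.0812), the smooth muscle score -0.39, 0.12 and 0.27, the mesothelium score -0.79, 0.31 and 0.48 and the crypt score -0.18, 0.0769 and 0.0996. Their part in the differences between groups given for the 10 genes was not tested. In whole tissue, fewer cells of a type and less RNA per cell cannot be told apart. Nor can the place where a piece was cut be told apart from a change of the position genes with PAC. An estimate with the position score as a covariate may thus also take out such a change.

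The 10 genes covered a wide range of levels. In water mice the mean FPKM was 366 ± 55.6 (SD, n = 5) for Rbp2, 144 ± 35.3 for Aldh1a1 and 83.5 ± 11.04 for Isx. Rdh7 (25.4 ± 8.86) and Dhrs3 (23.9 ± 2.96) came next and overlapped between mice, followed by Aldh1a3 at 10.7 ± 0.542. Aldh1a2 (6.40 ± 0.835) and Lrat (5.24 ± 0.527) overlapped as well, and so did Bco1 (1.47 ± 0.593) and Rarb (0.898 ± 0.157). All other neighbours in this order were apart in every pair of water mice. The order of levels placed Rbp2 above 98.7% of all listed genes by mean FPKM over the 15 mice, and Rarb above 29.4%. Rarb rested on 28 to 66 expected counts per mouse and Bco1 on 35 to 143, so counting error is a larger share of their spread than for Rbp2, which had 2104 to 4437.

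**Figure D1:**
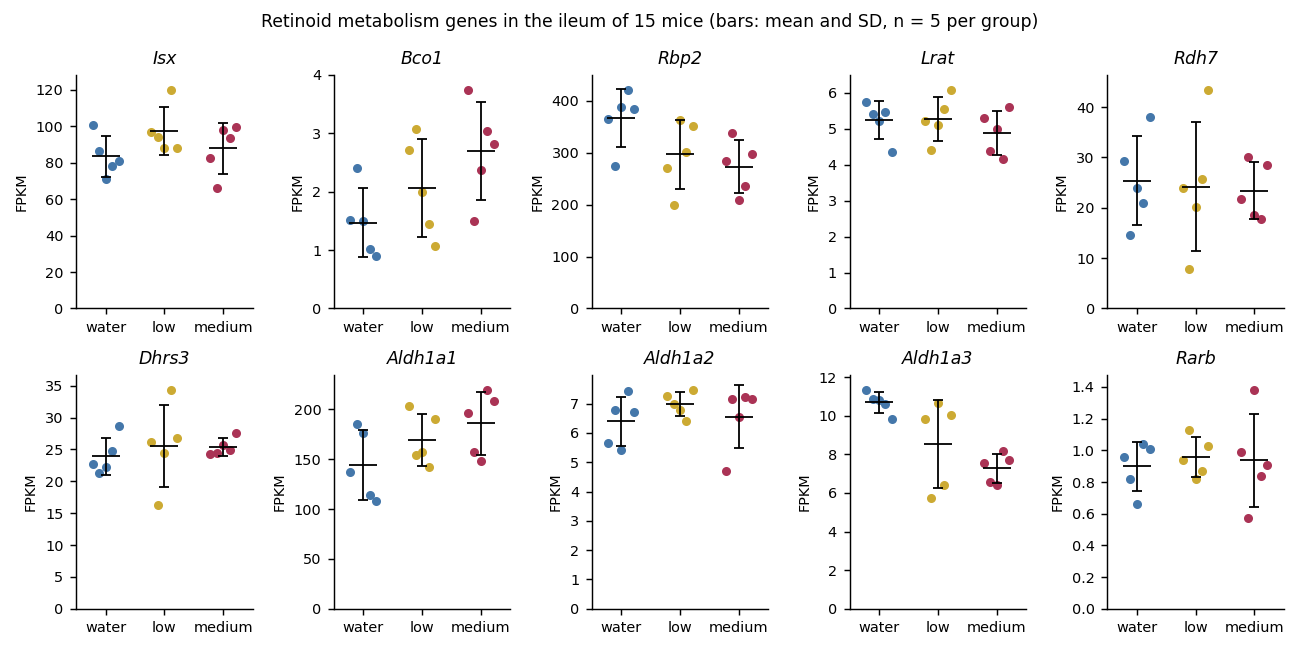
FPKM of each of the 10 genes (vertical axes, linear from 0) in 5 water, 5 low mDP PAC and 5 medium mDP PAC mice; points are mice, lines the mean and bars the SD. Aldh1a3 lies between 9.85 and 11.3 in water and between 6.41 and 8.18 after medium mDP PAC, while the groups overlap in the other 9 genes.

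In edgeR with all 3 groups in 1 model, medium mDP PAC against water gave no change of any of the 10 genes past the adjusted threshold. There 0.0139% of the 14386 genes tested passed in either direction. Aldh1a3 had the smallest p and was the one gene of the 10 whose medium mDP PAC and water mice did not overlap. At an unadjusted p under 0.05, Bco1 was higher, in a background of 4.37% of genes higher, and Aldh1a3 and Rbp2 were lower, in a background of 10.4% lower. With the position score as a covariate 1 of these 3 genes, Aldh1a3, was under it, while all genes under it went from 14.8% to 15.4%. This background depended on the scaling: 628 genes were higher and 1500 lower with TMM factors, but 1505 higher and 816 lower with upper-quartile factors, which moved the median of all genes from 0.0024 to 0.0663 (log2). The median log2 fold change of the 10 genes was -0.0409 beside 0.0024 over all genes tested, with 2 estimates above 0 and 8 below. Of those 8, 4 (Isx, Dhrs3, Aldh1a2 and Rarb) were above 0 with upper-quartile factors.

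**Figure D2:**
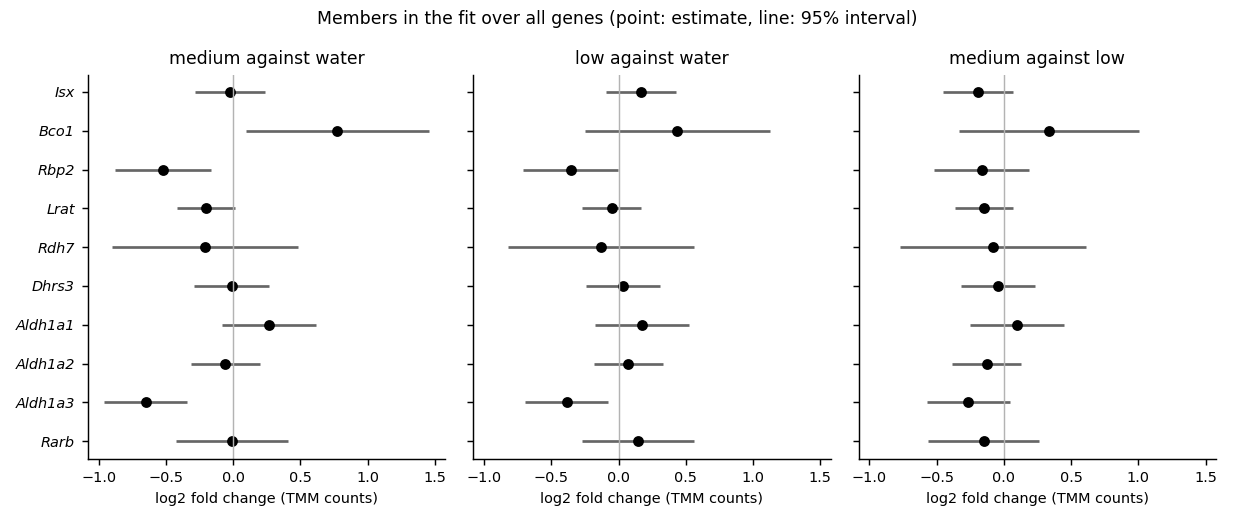
Log2 fold change of the normalized expected counts of each gene (horizontal axes) in the 3 comparisons, with points for the edgeR estimate and lines for the 95% interval. In medium mDP PAC against water the intervals of Bco1 (0.09 to 1.46), Rbp2 (-0.87 to -0.17) and Aldh1a3 (-0.96 to -0.34) leave out 0; in medium against low mDP PAC all 10 intervals hold 0.

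Isx encodes the intestine-specific homeobox factor named above. Its FPKM was 101, 86.5, 71.1, 78.4 and 80.7 in the water mice. It was 96.6, 93.9, 88.2, 120.03 and 88.2 after low mDP PAC and 82.5, 66.0, 97.9, 93.4 and 99.4 after medium mDP PAC. The 3 groups overlapped, and the log2 fold change of medium mDP PAC against water was -0.03 (SE 0.12, 95% interval -0.28 to 0.23).

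Bco1, the enzyme that cleaves beta-carotene at its centre to give retinal, is a target of ISX and lies at chr8:117095851-117133720 on the + strand (GRCm38). Its FPKM was 1.52, 2.40, 1.5, 1.02 and 0.89 in the water mice. It was 2.71, 3.07, 1.99, 1.45 and 1.06 after low mDP PAC. After medium mDP PAC it was 3.74, 1.5, 2.37, 3.04 and 2.82. Of the 5 medium mDP PAC mice 3 were above every water mouse and 1 was level with the middle of that group. In medium mDP PAC against water it had a log2 fold change of 0.78 (SE 0.32), with an edgeR p of 0.0282 and an adjusted p of 0.291. The exact permutation test (two-sided, on log2(FPKM + 0.1)) gave p = 0.0556 (n = 5 against 5). With the position score as a covariate the log2 fold change was 0.20. Its unadjusted p was under 0.05 in 11 of 15 fits that left out 1 mouse, all but those without water replicate 4 or 5 or medium mDP PAC replicate 1 or 4.

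The Bco1 promoter is shown because it was 1 of 2 promoters of these genes to hold a direct repeat of the hexamer motifs that RAR, RXR and related receptors bind. The search covered 250 bases before to 50 after each start in RefSeq (GRCm38.p6), on both strands, for the hexamer AGGTCA, its variant AGTTCA, the variant GGGTCA or the variant GGTTCA in any pair, spaced by 1, 2 or 5 bases. Of the 10 genes, 9 had a promoter in the table (13 promoters in all), Aldh1a3 being the exception. The stretch of Bco1, chr8:117095784-117095846 on the + strand, holds a repeat spaced by 1 base. It lies from 56 to 44 bases before the start of the promoter entry, which is inside the gene span given above. It is printed with the repeat in capitals, which reads AGGTCAAAGGTCA on the other strand.
Bco1: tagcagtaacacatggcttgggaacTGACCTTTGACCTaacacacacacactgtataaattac
A repeat with this spacing was found in 0.222% of 32851 mouse promoters of the same length. Spacing by 2 bases was found in 0.268% of them and in none of the 13. A match of letters is a description and shows no binding.

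Rbp2, the cellular retinol-binding protein of the enterocyte, was the most highly expressed of the 10 genes. Its FPKM was 366, 274, 388, 421 and 384 in the water mice. It was 270.1, 199.7, 363, 302 and 352 after low mDP PAC. After medium mDP PAC it was 285, 339, 209, 235 and 297. All but 1 of the water mice were above every medium mDP PAC mouse, and water replicate 2 lay among them. Its log2 fold change was -0.52 (SE 0.17), with an edgeR p of 0.0067, an adjusted p of 0.225 and an exact permutation p of 0.0397 (n = 5 against 5). The enterocyte score moved alongside, averaging 0.19 in water, -0.02 after low and -0.18 after medium mDP PAC, and the summed FPKM of its 10 genes was 14163 to 18327, 11650.0 to 16109.8 and 9608 to 15348. With the position score as a covariate the log2 fold change of Rbp2 was -0.25. The part of cell make-up in this difference was not tested.

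Lrat, which esterifies retinol, stayed within a narrow range of 4.16 to 6.08 FPKM over all 15 mice. Its group means were 5.24 ± 0.527 in water, 5.27 ± 0.611 after low mDP PAC and 4.88 ± 0.609 after medium mDP PAC (SD, n = 5). The groups overlapped, and the log2 fold change of medium mDP PAC against water was -0.20 (SE 0.10, edgeR adjusted p = 0.367) on TMM counts but -0.10 on the log2(FPKM + 0.1) scale.

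Rdh7 belongs to the short-chain dehydrogenases that interconvert retinol and retinal and sits in a cluster of such genes on chromosome 10, within 115.7 kb of Rdh1, Rdh9 and Rdh16. Its expected count was not a whole number in 5 of the 15 mice, which can happen when reads are split between near-identical genes, so its level is less certain. Over all 15 mice Rdh7 had the widest range of the 10 genes, 5.56-fold, set by 2 low mDP PAC mice at 7.81 and 43.4 FPKM. The range was 14.7 to 38.1 in water and 17.8 to 30.2 after medium mDP PAC, and the groups overlapped. For medium mDP PAC against water the log2 fold change was -0.21, with a 95% interval of -0.90 to 0.48, and it turned to 0.35 with the position score as a covariate. It was -0.05 without water replicate 5 and -0.36 without water replicate 2.

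Dhrs3, which reduces retinal back to retinol, was the steadiest gene after medium mDP PAC, where its FPKM was 24.2, 24.5, 25.7, 24.9 and 27.6. In water it ran from 21.3 to 28.7 and after low mDP PAC from 16.2 to 34.3. The log2 fold change of medium mDP PAC against water was -0.01 (95% interval -0.29 to 0.26).

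The 3 retinal dehydrogenase genes encode enzymes that oxidise retinal to retinoic acid, an irreversible step. Aldh1a1 was by far the most expressed of them. Its FPKM was 137, 186, 176, 114 and 108 in the water mice. It was 203, 154, 157, 142 and 190.1 after low mDP PAC. After medium mDP PAC it was 196, 157, 149, 219 and 208. Of the medium mDP PAC mice 3 were above every water mouse, and the remaining 2 were within the water range. For this comparison the log2 fold change was 0.27 (SE 0.17, 95% interval -0.08 to 0.62, edgeR adjusted p = 0.440), and it was 0.11 with the position score as a covariate and 0.17 without water replicate 5. Aldh1a7, a close paralog that lies 49.5 kb from it on chromosome 19, had a log2 fold change of 0.30 (edgeR adjusted p = 0.379). The expected counts of both genes were whole numbers in all 15 mice.

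Aldh1a2, the form known from fibroblasts, mesothelium and dendritic cells of the gut, was between 5.42 and 7.42 FPKM in water, 6.39 and 7.46 after low mDP PAC and 4.69 and 7.21 after medium mDP PAC. The lowest value came from 1 medium mDP PAC mouse, and the other 14 mice were at 5.42 or more. Medium mDP PAC against water gave a log2 fold change of -0.06 (95% interval -0.31 to 0.20).

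Aldh1a3, at chr7:66390892-66427477 on the - strand (GRCm38), had the smallest p of the 10 genes, although the estimate for Bco1 was larger in size. Its FPKM was 11.3, 10.8, 10.8, 10.6 and 9.85 in the water mice. It was 9.85, 5.73, 10.6, 6.40 and 10.03 after low mDP PAC. After medium mDP PAC it was 7.53, 6.58, 6.41, 8.18 and 7.70. The water mice were close together, with a coefficient of variation of 5.07%. Each of the 5 medium mDP PAC mice was below each of them by FPKM. This was so for 0.646% of all genes tested, and 3.99% were higher without overlap. In edgeR on TMM counts the tilt was the other way, with 10.4% lower and 4.37% higher at an unadjusted p under 0.05. The share without overlap was not worked out on TMM counts. The low mDP PAC mice split into 3 at the water level and 2 at or under the medium mDP PAC level. The log2 fold change of medium mDP PAC against water was -0.65 (SE 0.15), 1.57-fold lower. It ranked as number 43 of 14386 genes by edgeR p (0.000398), with an adjusted p of 0.133. The exact permutation test gave p = 0.0079, which is the smallest that 5 mice against 5 can give. Any gene without overlap gets this p, so it adds nothing to the lack of overlap. DESeq2 gave an adjusted p of 0.0142, in a background of 0.779% of genes called by DESeq2, and limma on log2(FPKM + 0.1) gave 0.158. Without each of the 15 mice in turn the log2 fold change stayed between -0.71 and -0.57, with edgeR adjusted p from 0.0918 to 0.32. Over the 30 exact tests of the 10 genes, 2 had an unadjusted p under 0.05, those of Aldh1a3 and Rbp2 in medium mDP PAC against water. The exact test was not run over all genes, so no share of all genes stands beside this count.

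**Figure D3:**
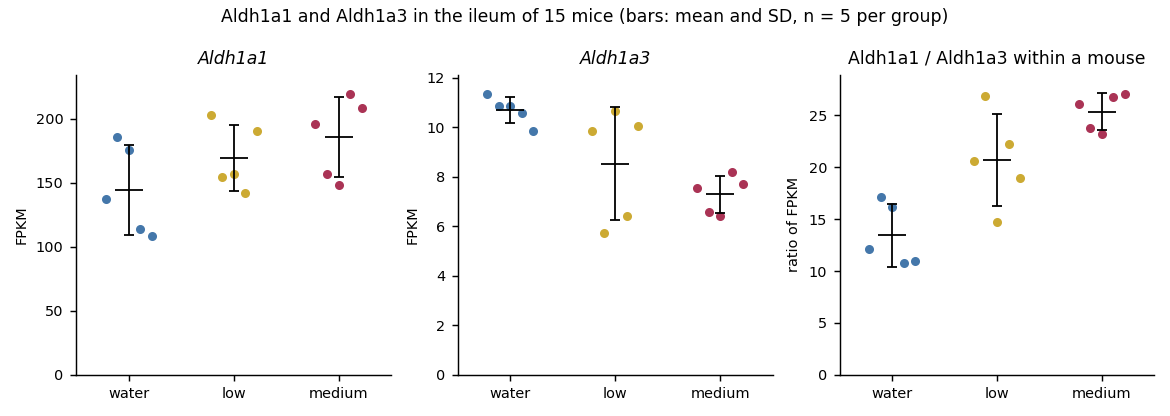
FPKM of Aldh1a1 and of Aldh1a3 and the ratio of the first to the second within each mouse (vertical axes, linear from 0) for 5 mice per group; points are mice, lines the mean and bars the SD. The ratio lies between 10.7 and 17.1 in water and between 23.2 and 27.0 after medium mDP PAC.

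The 2 genes differed from water in opposite directions on average, so their ratio within a mouse was formed after the values were seen, and it is given as a description without a test. The median ratio of Aldh1a1 to Aldh1a3 (FPKM) was 12.1 in water, 20.6 after low mDP PAC (range 14.7 to 26.9) and 26.0 after medium mDP PAC. All medium mDP PAC mice were above all water mice, and the low mDP PAC mice bridged both. Aldh1a1 made up a median of 89.0% of the FPKM of the 3 genes in water, 91.7% after low mDP PAC and 93.3% after medium mDP PAC, so the summed level mostly followed Aldh1a1.

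Rarb, a retinoic acid receptor whose own transcription responds to retinoic acid, was low in every mouse, between 0.57 and 1.38 FPKM. Its means were 0.898 ± 0.157 in water, 0.958 ± 0.124 after low mDP PAC and 0.938 ± 0.293 after medium mDP PAC (SD, n = 5). The log2 fold change of medium mDP PAC against water was -0.01 on TMM counts with a 95% interval of -0.42 to 0.41, and 0.026 on the log2(FPKM + 0.1) scale. A promoter inside the Rarb gene is shown because it held a repeat spaced by 5 bases, the arrangement known for retinoic acid response elements. The stretch is chr14:16575488-16575554 on the - strand (RefSeq, GRCm38.p6), with the repeat in capitals from 53 to 37 bases before the start.
Rarb: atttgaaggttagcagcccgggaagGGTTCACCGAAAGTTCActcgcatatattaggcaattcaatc
Of the 32851 promoters 0.097% held such a repeat, and no match was found in the promoters of the other 8 genes with an entry.

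Low mDP PAC against water used the same 5 water mice, so its estimates are not independent of those above. None of the 10 genes passed the adjusted threshold in edgeR, as was the case for all genes tested (0%). At an unadjusted p under 0.05 none was higher (1.4% of all genes were) and 2 were lower (2.21% of all genes were). These were Aldh1a3, with a log2 fold change of -0.39 (SE 0.14, edgeR adjusted p = 0.976), and Rbp2, at -0.36 (SE 0.17, edgeR adjusted p = 0.976), whose interval of -0.71 to -0.0028 only just leaves out 0. With the position score as a covariate Rbp2 was at -0.10 and neither gene had an unadjusted p under 0.05. Without single mice the count was 1 or 2, where 293 to 804 of all genes were under it in place of 520. Aldh1a3 was under it in all 15 such fits. Rbp2 was in only 4 (those without water replicate 2, low mDP PAC replicate 3 or 5, or medium mDP PAC replicate 2), and Isx in 1 (without water replicate 1). With upper-quartile or RLE factors 1 of the 10 genes was under it. Of all genes, 312 were then higher and 210 lower with upper-quartile factors, and 253 and 250 with RLE factors, where TMM factors gave 202 and 318. Exact permutation tests gave p = 0.0556 for Aldh1a3 and p = 0.119 for Rbp2 (n = 5 against 5). Bco1 had an estimate of 0.44 (SE 0.32), or -0.18 with the position score as a covariate, 0.23 without low mDP PAC replicate 2 and 0.68 without water replicate 2, and the other 7 genes lay between -0.13 and 0.17. The median was 0.0534, beside -0.0141 over all genes tested.

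Medium against low mDP PAC compares the 2 polymer sizes directly at the same dose and time. None of the 10 genes differed at an adjusted or at an unadjusted p under 0.05 in edgeR, where 0% of all genes passed the adjusted threshold, 1.84% were higher and 2.05% lower at the unadjusted one. That split was 264 higher and 295 lower with TMM factors but 509 and 167 with upper-quartile factors. The intervals show what the data leave possible. For Aldh1a3 the log2 fold change was -0.26 with a 95% interval of -0.57 to 0.04 (edgeR adjusted p = 0.896). For Bco1 it was 0.34 (-0.33 to 1.01), for Rbp2 -0.16 (-0.52 to 0.19) and for Aldh1a1 0.10 (-0.25 to 0.45). Without low mDP PAC replicate 2 or 4, the 2 mice with low Aldh1a3, 1 of the 10 genes, Aldh1a3, had an unadjusted p under 0.05, where 480 and 532 of all genes did, in place of 559 with every mouse. Dhrs3 had the value nearest to 0, -0.05 (-0.32 to 0.23). A difference between the fractions was thus not shown for any of the 10 genes, nor were the fractions shown to act alike.

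Mice of the same group differed in ways that linked some of the genes to tissue scores. With group means subtracted, 50 pairs of a gene and a score (position, enterocyte, fibroblast, mesothelium, follicular B cell) were correlated over the 15 mice with a permutation test within groups, and 5 pairs had a Benjamini-Hochberg adjusted p under 0.05. Bco1 was higher in mice with a more distal score (r = -0.84, permutation p = 0.00053, adjusted p = 0.00662, rho = -0.84). Rbp2 was higher in mice with a more proximal score (r = 0.81, permutation p = 0.00027, adjusted p = 0.00467, rho = 0.78) and with a higher enterocyte score (r = 0.76, permutation p = 0.00018, adjusted p = 0.00467, rho = 0.84). Rdh7 also was higher with a more proximal score (r = 0.78, permutation p = 0.00388, adjusted p = 0.0388, rho = 0.71). Aldh1a2 was higher with the fibroblast score (r = 0.84, permutation p = 0.00028, adjusted p = 0.00467, rho = 0.79). For rho the permutation p-values were 0.00049, 0.00102, 0.00012, 0.0079 and 0.0018 in the same order, and 4 of the 5 had an adjusted p under 0.05, Rdh7 being at 0.0586. Leaving out the 2 mice with scores farthest from the median gave r = -0.79 for Bco1, 0.81 and 0.80 for Rbp2 and 0.76 for Aldh1a2, but 0.52 for Rdh7, whose relation rests on those mice. None of these had an adjusted p under 0.05 without them (0.0827 for the first 4 pairs and 0.468 for Rdh7). For Aldh1a3 the relation with position was weak (r = 0.32, permutation p = 0.392, rho = 0.15, permutation p = 0.633) and that with the enterocyte score failed the correction (r = 0.52, permutation p = 0.0182, adjusted p = 0.152, rho = 0.47, permutation p = 0.0996).

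**Figure D4:**
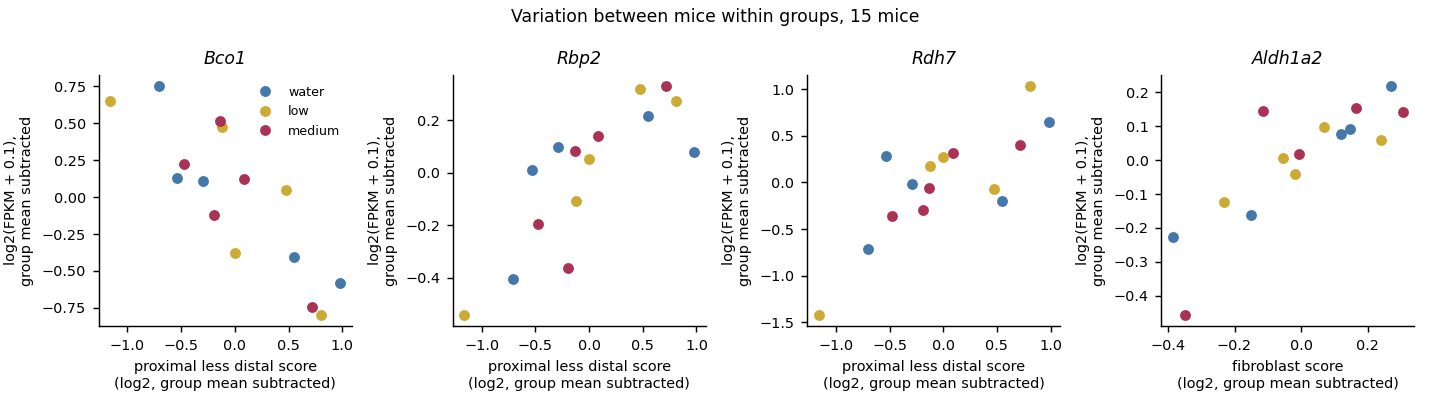
Log2(FPKM + 0.1) of Bco1, Rbp2 and Rdh7 against the position score and of Aldh1a2 against the fibroblast score in 15 mice, with the group mean subtracted on both axes; each point is a mouse, coloured by group. Bco1 is lower at higher scores (r = -0.84) and the other 3 are higher (r = 0.81, 0.78 and 0.84).

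Among the 45 pairs of the 10 genes none had an adjusted p under 0.05. Those with the smallest p for r were Rbp2 with Rdh7 (r = 0.77, permutation p = 0.00513, adjusted p = 0.117, rho = 0.61, permutation p = 0.0311) and Bco1 with Rdh7 (r = -0.72, permutation p = 0.00518, adjusted p = 0.117, rho = -0.65, permutation p = 0.0186). Without the 2 farthest mice they were 0.59 and -0.61. By rho the smallest p was that of Aldh1a1 with Aldh1a3, which were higher in the same mice of a group (r = 0.52, permutation p = 0.0177, adjusted p = 0.199, rho = 0.56, permutation p = 0.00759, and r = 0.60 without the 2 farthest mice). Isx and Bco1, the repressor and its target, had r = 0.26 (permutation p = 0.367, rho = 0.33, permutation p = 0.266, and r = -0.20 without the 2 farthest mice).

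A wider list of 59 retinoid genes that are not among the 10 was counted by role. The files listed 58 of them and 46 passed the filter on low counts; 12 listed genes did not, among them Cyp26a1 and Cyp26c1, which degrade retinoic acid, and Crabp2, which binds it. None of the 46 passed the adjusted threshold in any comparison. At an unadjusted p under 0.05, 4 were higher and 6 lower in medium mDP PAC against water, where 4.37% of all genes were higher and 10.4% lower. In low mDP PAC against water 0 were higher and 2 lower (1.4% and 2.21% of all genes), and in medium against low mDP PAC 2 were higher and 0 lower (1.84% and 2.05%). The last 2 comparisons gave 0 to 4 and 1 to 4 genes of the list in all without single mice, where all genes gave 293 to 804 and 264 to 986. Their median log2 fold changes were -0.0043, -0.001 and -0.0306, near those of all genes tested (0.0024, -0.0141 and 0.005).

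**Figure D5:**
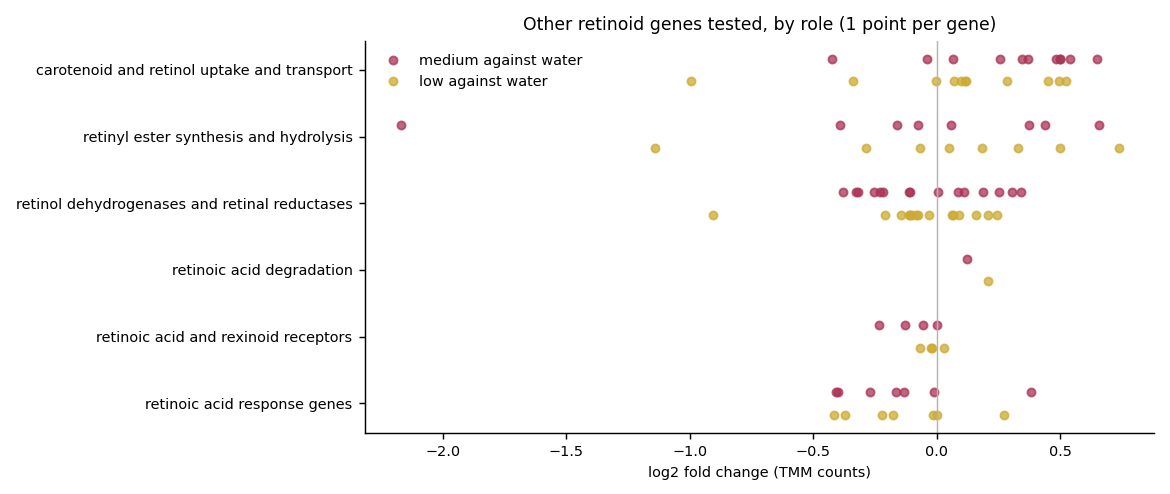
Log2 fold changes of 46 other retinoid genes by role in medium and low mDP PAC against water; each point is a gene. Plb1 stands farthest to the left in medium against water, at -2.17, and no gene passed the adjusted threshold.

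In uptake and transport, the fatty acid and carotenoid carrier Cd36 had the highest mean over all mice (21.8 FPKM, range 8.44 to 39.4), although Bco2 was above it in water. Between mice of a group Cd36 moved with the fat cell score (r = 0.97, given as a description). Bco2, which cleaves carotenoids off centre in mitochondria, had a log2 fold change of -0.42 in medium mDP PAC (adjusted p = 0.234) and -0.34 in low mDP PAC (adjusted p = 0.976) against water by edgeR. Its mean FPKM was 24.0 in water, 19.7 after low and 19.1 after medium mDP PAC. In ester synthesis and hydrolysis, Dgat1, which makes triglycerides and retinyl esters, had the highest mean over all mice (156 FPKM), though Plb1 was above it in water and Pnliprp2 after medium mDP PAC. Dgat1 had the smallest p in medium mDP PAC against water (log2 fold change -0.39, SE 0.12, edgeR adjusted p = 0.211). Between mice of a group Dgat1 moved with the position score (r = 0.68) and the fat cell score (r = 0.54), both given as descriptions, and their part in its difference was not tested. In low mDP PAC against water it was at -0.29 (edgeR adjusted p = 0.976).

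Plb1, the brush border phospholipase that hydrolyses retinyl esters, had the largest difference on the list. Its FPKM was 182, 85.6, 194, 340.3 and 351 in the water mice. It was 32.7, 13.0, 103, 252 and 231 after low mDP PAC. After medium mDP PAC it was 35.7, 195, 35.8, 17.6 and 53.3. Of the medium mDP PAC mice 4 were under every water mouse, and 1 lay inside the water range. In medium mDP PAC against water the log2 fold change was -2.17 (SE 0.76, edgeR adjusted p = 0.25). Between mice of a group Plb1 also moved with the position score (r = 0.83, given as a description), and medium mDP PAC replicate 2, its highest mouse in that group, had the most proximal score there.

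Among the dehydrogenases and reductases, Adh1 had the highest mean over all mice (42.8 FPKM, range 23.6 to 57.2), although Dhrs4 was above it after medium mDP PAC. In medium against low mDP PAC the smallest p-values were those of Dhrs4, Rdh13 and Rdh16, with log2 fold changes of 0.22, 0.20 and -0.39, all with an edgeR adjusted p of 0.896. Rdh12 had a log2 fold change of -0.90 in low mDP PAC against water (edgeR adjusted p = 0.976). It rested on only 12 to 36 expected counts per water mouse and 6 to 22 per low mDP PAC mouse. Between mice of a group Rdh12 moved with the follicular B cell score (r = 0.90). Adh5 and the lipase gene Pnliprp2 are named here after their values were seen. Of the 46 genes they were the 2 whose medium mDP PAC mice all lay above the water mice by FPKM. This was the case for 3.99% of all genes tested. The log2 fold changes of Adh5 and Pnliprp2 were 0.25 (adjusted p = 0.294) and 0.37 (adjusted p = 0.329) by edgeR.

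Degradation was represented by Cyp26b1 alone, at a mean of 1.98 FPKM and log2 fold changes of 0.12 in medium and 0.21 in low mDP PAC against water. The 4 receptor genes tested, led by Rxra at 35.0 FPKM, had log2 fold changes from -0.23 to 0.0014 in medium mDP PAC against water. The lowest, Rara, was 1 of the 6 lower genes counted above. The 7 response genes tested, led by the transglutaminase Tgm2 at 45.1 FPKM, ranged from -0.41 to 0.38, and 1 of them was also among those 6, beside a share of 10.4% lower over all genes. This was Ccr9, the gut homing receptor of lymphocytes, which like Rara is named after its value was seen (log2 fold change -0.40, edgeR adjusted p = 0.266). Ccr9 moved with the follicular B cell score between mice of a group (r = 0.68). Whether lymphoid tissue in the piece bears on it was not tested.

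The genes with the pattern most like each of the 10 were taken by Pearson's r of log2 CPM over 15 mice with group means subtracted, from all other genes tested. For Rbp2 these were Nek6 (r = 0.95), Ephx2 (0.94) and Cyp4b1 (0.94). For Rdh7 they were Anxa13 (0.92), Fabp2 (0.90) and Arg2 (0.89), and Arg2 (0.88) also followed Cda and Snurf (both 0.92) for Dhrs3. Bco1 was most like Fyb2 (0.89), the homeobox gene Hoxb4 (0.89) and Krt84 (0.87). Aldh1a3 was most like Pappa (0.90), Fign (0.86) and the kinase gene Sgk1 (0.86), and Aldh1a1 was most like D330045A20Rik (0.93), Smad5 (0.92) and Abhd3 (0.92). Isx was most like Tmem102 (0.85), Ntf3 (0.83) and Pmepa1 (0.83), and Aldh1a2 was most like Plet1 (0.85), Cd300ld (0.84) and Tnfrsf19 (0.82). For Rarb the genes were Tyw1 (0.81), Kti12 (0.81) and Polr1c (0.80), and for Lrat Bhlhe22 (0.80), She (0.80) and Ankrd63 (0.76). These values are the highest of many and carry no test.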

How the data were processed

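Expected counts and FPKM per gene were deposited by the authors as 1 table per mouse. The study's methods describe cleaning with SOAPnuke and mapping with Bowtie2, whereas the submitters' processing notes name HISAT, DESeq2 and mm10; the counting tool is not given in the sources used here. The deposited expected counts are estimated counts, not normalized, and were rounded; the authors' FPKM values are scaled by gene length and library. A gene missing from a mouse's table was set to 0.

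Rounded counts of the 14386 genes kept by filterByExpr were tested with edgeR 4.0.16 (TMM, quasi-likelihood, 3 groups in 1 model of 15 mice, Benjamini-Hochberg over all genes, threshold 0.05) in R 4.3.3. Alternatives used DESeq2 1.42.0 and limma 3.58.1, other scaling, filters and pseudocounts, each mouse left out and tissue scores as covariates. Each of the 10 genes was tested on log2(FPKM + 0.1) by exact permutation (two-sided) too, and correlations used 100000 permutations within groups. A score is the mean centred log2(FPKM + 0.1) of a marker list. Nothing says more of the replicates than 1 library per mouse, and p-values measure the spread between these mice. At 15963086 to 17903886 counts per mouse, counting error matters mainly for genes with few counts, such as Bco1 and Rarb. The 10 genes and all lists were chosen with earlier results of these data known. All 10 were named; of the wider list, the 3 smallest p-values per comparison, the most expressed gene of each role and genes stated as chosen later; and the 3 most similar genes per member. Scripts were tested on simulated data with Python 3.11.15, numpy 2.4.6, pandas 2.3.3 and scipy 1.17.1; figures used matplotlib 3.10.9.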

Additional observations from a re-analysis of the deposited data

Results flagged for a closer look

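Single mice stood apart in 2 of 30 sets of 5 values (10 genes in 3 groups) by Dixon's test, in which the gap to the nearest mouse exceeded 0.71 of the group's range; chance alone marks about 1 in 20 such sets. Isx was 120.03 FPKM in replicate 4 of the low mDP PAC group, while the other 4 mice were between 88.2 and 96.6 (gap 0.736 of the range). Without that mouse the log2 fold change of Isx in low mDP PAC against water was 0.08 in place of 0.17. Aldh1a2 was 4.69 FPKM in replicate 1 of the medium mDP PAC group, while the other 4 mice were between 6.56 and 7.21 (gap 0.742). That mouse also had the lowest fibroblast score of its group, -0.37, and its part in the value was not tested.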

How the results depend on the processing

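Of 780 values of the 10 genes under other settings, 722 kept their direction and side of the threshold, 56 of estimates that were not called took the other sign and 2 became called. Those 2 were Aldh1a3 in medium mDP PAC against water, by DESeq2 (-0.63, adjusted p = 0.0142) and with only the 2 groups compared (-0.65, edgeR adjusted p = 0.0499), so 1 of the 10 genes was called there, as with the filter of DESeq2 itself, where 0 were in edgeR. For all genes in that comparison edgeR called 2, DESeq2 112 (167 with its own filter), limma 9 with a pseudocount of 0.1 and 9 with 1, the 2-group model 4 and the model with the position score 1; without single mice it was 2 to 11, with 11 without medium mDP PAC replicate 2 and 4 without water replicate 2. For low mDP PAC against water edgeR called 0 (202 higher and 318 lower at an unadjusted p under 0.05), DESeq2 2 (2 with its own filter) and edgeR 0 to 1 without single mice, the 1 being without low mDP PAC replicate 2. For medium against low mDP PAC edgeR and DESeq2 called 0 (264 higher and 295 lower unadjusted, 348 and 257 with RLE and 509 and 167 with upper-quartile factors). At an unadjusted p under 0.05, with the position score there were 1 of the 10 genes in place of 3 in medium mDP PAC against water and 0 in place of 2 in low mDP PAC against water, while the share of all genes went from 14.8% to 15.4% and from 3.61% to 5.99%. Of the wider list 2 genes in low mDP PAC against water became 0 with limma (all genes 635 and 605 in place of 520), 4 with the fat cell score (502) and, without single mice, 0 (without water replicate 3, all genes 293, or low mDP PAC replicate 2, 502), 1 (water replicate 1, 354, or 5, 543, or low mDP PAC replicate 1, 361) or 4 (water replicate 4, 721). In medium against low mDP PAC its 2 became 4 with the position (550 in place of 559) or fat cell score (559), 1 with the replicate block (460) and, without single mice, 4 (water replicate 3, 516, or medium mDP PAC replicate 4, 986) or 1 (water replicates 1, 4 and 5, low 1, 2 and 4 and medium 1, 3 and 5, 264 to 863). In that comparison Bco1 was 0.17 to 0.55, Rbp2 -0.27 to -0.0662, Aldh1a1 0.0187 to 0.18 and Aldh1a3 -0.37 to -0.17 without single mice. Models with scores as covariates and the filter of DESeq2 were added after seeing the data. The correlations with scores fell from 5 to 0 past the adjusted threshold without the 2 farthest mice. The labels do not say whether replicate numbers pair mice, and this check does not settle it. Same-numbered mice, with group means subtracted, correlated over 0.1 in 3 of 5 pairs of medium mDP PAC and water. It was 2 of 5 for low mDP PAC and water and 0 of 5 for the PAC groups. The mean r of same-numbered mice was 0.15, 0.12 and -0.12 in turn, beside -0.04, -0.03 and 0.03 for other pairs. With the replicate number as a block Aldh1a3 was at -0.65 (edgeR adjusted p = 0.28) and 0 of the 10 genes were called. Causes of these shifts were not tested.

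These log2 values took the opposite sign. In medium mDP PAC against water, Isx was at 0.04 (upper quartile), 0.0079 (no filter), 0.018 (fat cell score), 0.0676 and 0.0669 (limma, both pseudocounts), and -0.0732 to 0.0661 without single mice. Dhrs3 was at 0.0098 (DESeq2 and its size factors), 0.0499 (upper quartile), 0.018 (no filter), 0.17 (position score), 0.0934 and 0.0898 (limma), and -0.0538 to 0.0434 without single mice. Aldh1a2 was at 0.0017 (upper quartile), 0.025 and 0.023 (limma), and -0.10 to 0.0492. Rarb was at 0.0128 (DESeq2), 0.0126 (its size factors), 0.0575 (upper quartile), 0.023 (no filter), 0.029 (fat cell score), 0.026 and 0.021 (limma), and -0.14 to 0.12. With the position score Rdh7 was at 0.35, and in low mDP PAC against water Bco1 was at -0.18 and Rdh7 at 0.33. There Lrat was at 0.0076 and 0.0067 (limma), Dhrs3 at -0.0507 (fat cell score), and without single mice Rdh7 was -0.45 to 0.0895 and Dhrs3 -0.0862 to 0.15. In medium against low mDP PAC Rdh7 was at 0.0561 (replicate block), 0.0142 and 0.0145 (position and fat cell scores), 0.11 and 0.0976 (limma), and -0.30 to 0.24 without single mice; Dhrs3 was at 0.027 and 0.024 (limma) and -0.16 to 0.0741.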
